A study of Rattus norvegicus with 8 samples.

Results

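The family of miR-130 and miR-301 is a group of miRNAs that share 1 seed, and it was followed here in the left medial vestibular nucleus (MVN) of the rat. Its members were all miRNAs on the array whose name begins with miR-130a, miR-130b, miR-301a or miR-301b, with either arm of the hairpin, which gave 8 of 758 rat miRNAs (4 of the 3p arm and 4 of the 5p arm). The listed members are rno-miR-130a-3p, rno-miR-130b-3p, rno-miR-301a-3p and rno-miR-301b-3p, written below without the prefix for rat. The family was selected on the array signals of its members, whose levels over the 8 arrays were known when it was proposed, so the values of its members are given as descriptions, with standard errors and without p-values. The animals were male Sprague–Dawley rats aged 7 weeks, and every operation was on the left side. In the unilateral vestibular deafferentation (UVD) group the left labyrinth was destroyed by opening the vestibule and instilling ethanol. In the sham operation (SO) group the middle ear was opened in the same way, with the vestibule left closed and no ethanol given. Left MVNs were taken 4 h and 4 d after surgery, times that the study set to an early stage of vestibular compensation and to its completion. Each of the 4 groups (UVD 4 h, SO 4 h, UVD 4 d and SO 4 d) had 2 arrays, and each array held RNA pooled from 3 rats.

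A miRNA is a short RNA that guides silencing complexes to messenger RNAs, mostly by pairing of its seed, bases 2 to 8 from the 5′ end, with a matching stretch of the target. Members of a seed family are therefore expected to share many predicted targets, while the bases after the seed set them apart on an array. In human and mouse cells, known targets of members of this family include the nuclear receptor PPARG, and miR-130a is known from vessel-lining cells for its part in angiogenesis.

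The mature sequences of the family are shown because the seed defines it and the other bases separate its members. They are RefSeq sequences, 5′ to 3′, with the seed in capitals:
miR-130a-3p: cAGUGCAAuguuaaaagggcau
miR-130b-3p: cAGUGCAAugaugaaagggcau
miR-301b-3p: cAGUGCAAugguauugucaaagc

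The seed AGUGCAA pairs with UUGCACU in a target. miR-130a-3p and miR-130b-3p were identical at 20 of 22 bases and shared their last 9 bases. They differed by U11A and A13G, counted from 1 at the 5′ end, with the base of miR-130a-3p first. miR-130a-3p and miR-301b-3p were identical at 13 of the first 22 bases, and all differences lay after the seed. Of the 8 array features, 7 matched a mature sequence in the RefSeq table. The sequence of miR-301a-3p was not used here, and it is described by name only. Among the 685 array miRNAs with a matched sequence, 3 carried the family seed, and all 3 were family members.

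In the GRCr8 build, mature miR-130a-3p lies at chr3:90229240-90229261 on the minus strand. Its gene, Mir130a, lies outside protein-coding genes, 1832 bases from Ypel4, and overlaps Mir3590. Mature miR-130b-3p lies at chr11:97384430-97384451 and mature miR-301b-3p at chr11:97384077-97384099, both on the plus strand. Their genes Mir301b and Mir130b are 269 bases apart and both lie within the bounds of 2610318N02Rikl. Mir301a, at chr10:72422599-72422698 on the plus strand, lies within the bounds of Ska2, which codes for a kinetochore protein, and of Prr11. Both arms of miR-3590 were detected on 0 arrays.

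On the Agilent array each rat miRNA had 16 spots, and the image software reports for each miRNA a total gene signal with its own call of detected or not detected. Quantile normalization was applied to these signals across the arrays, and the levels are given as normalized intensity in arbitrary units, with a floor of 1. Between 378 and 430 miRNAs were detected per array, the fewest on UVD 4 h replicate 2, and a miRNA was tested if both arrays of some group detected it, which left 422. All arrays were on 1 slide with the UVD group in one slide row and the SO group in the other, and the timepoints were in separate columns, so slide position and group cannot be told apart. Neuron-enriched miRNAs were present throughout: 5 of 5 listed were detected on all arrays, among them miR-124-3p. No spot was saturated. The number of arrays limits the precision of every value below, and normalized intensities of different miRNAs are not compared with each other because probes differ in brightness.

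Of the 8 family features, miR-130a-3p and miR-301a-3p were detected on 8 arrays, miR-130b-3p on 7 and miR-301b-3p on 1. The 4 miRNAs of the 5p arm were detected on 0 arrays. miR-301b-3p was detected on SO 4 h replicate 1, with a normalized intensity of 3.34, and on no array of the UVD group. On that array 2 of its 16 spots were well above background, whereas 0 of 16 were on each UVD 4 d array and 1 of 16 on each SO 4 d array. The 16-spot medians of miR-301b-3p were 2.04 and 2.21 on the UVD 4 d arrays and 0.478 and 0.483 on the SO 4 d arrays, all near the background. A difference in miR-301b-3p, the neighbor of miR-130b-3p on chromosome 11, was not detectable at this signal. miR-130a-3p, miR-130b-3p and miR-301a-3p passed the detection filter, and the 5 other features did not.

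miR-130b-3p was the member that varied most between arrays. Its normalized intensity at 4 h was 3.12 on UVD replicate 1 and not detected on UVD replicate 2, against 5.47 and 4.65 in the SO group. At 4 d it was 13.4 and 27.8 in the UVD group, against 10.8 and 6.69 in the SO group. Both UVD 4 d arrays were thus above all 6 other arrays, a pattern that 6.64% of the 422 tested miRNAs had. The means were 2.06 ± 1.50 in the UVD group, against 5.06 ± 0.583 in the SO group at 4 h, and 20.6 ± 10.2 in the UVD group, against 8.73 ± 2.87 in the SO group at 4 d (SD, n = 2 arrays each, with the undetected value at the floor of 1).

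**Figure D1:**
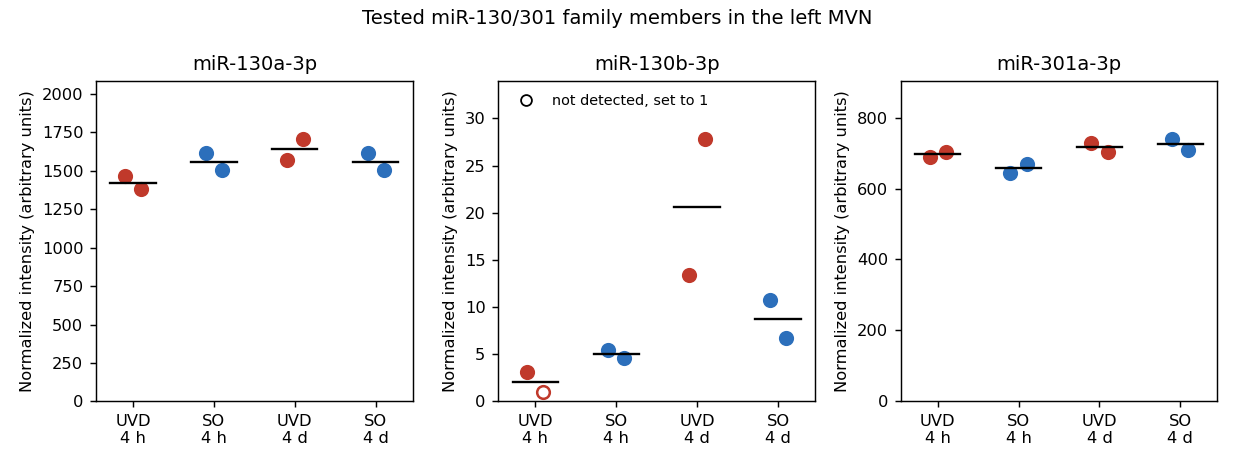
Normalized intensity (arbitrary units, linear axis from 0) of miR-130a-3p, miR-130b-3p and miR-301a-3p on each array. Points are arrays (2 per group, red for UVD and blue for SO), lines are group means, and the open point is the array on which miR-130b-3p was not detected. The UVD 4 d arrays of miR-130b-3p, at 13.4 and 27.8, are above the other arrays, and the other members stay within a narrow band.

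With the undetected value at the floor, the log2 difference of miR-130b-3p between 4 d and 4 h was 3.45 within the UVD group (SE 0.65, 10.9-fold), the highest of 422, and 0.75 in the SO group (SE 0.65, 1.68-fold), the 20th highest. The size of the fold in the UVD group depends on the floor value and on the signal used. It was 4.41 with the undetected value at the detection limit and 2.62 from the spot means. The rank was 2 of 422 in both of these. It was 19 with the authors' values and 22 with normexp. The spot means, the authors' values and normexp change the signal on all arrays and not the floor value alone. Between the UVD and SO groups it was −1.51 at 4 h (SE 0.65) and 1.19 at 4 d (SE 0.65, 2.28-fold). The difference at 4 d was the 10th highest of 422. The replicate spread was wide: the residual SD on the log2 scale was 0.74 for miR-130b-3p, 0.07 for miR-130a-3p and 0.04 for miR-301a-3p. At 4 d the replicates of the UVD group, at 13.4 and 27.8, were about as far apart as the group means. Without UVD 4 d replicate 2 the difference between UVD and SO at 4 d was 0.66, and without replicate 1 it was 1.71. Without UVD 4 h replicate 2, the array with the undetected value, the difference at 4 h was −0.69, and that between 4 d and 4 h with UVD was 2.63. Without UVD 4 h replicate 1 these were −2.33 and 4.27.

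The spots behind miR-130b-3p gave a smaller difference. The median of its 16 background-subtracted spot signals, before normalization between arrays, was 6.10 and 7.48 on the UVD 4 h arrays and 6.66 and 7.68 on the SO 4 h arrays. The 7.48 belonged to UVD 4 h replicate 2, the array on which the software gave no detected total signal, and its spots were as bright as those of the other 4 h arrays. At 4 d the medians were 15.1 and 23.7 on the UVD arrays and 10.8 and 8.69 on the SO arrays. The 4 h groups overlapped in these spot medians, and the UVD 4 d arrays again lay above all others. Spots well above background numbered 13 and 16 of 16 on the UVD 4 d arrays and 6 and 4 on the SO 4 d arrays. At 4 h the counts were 1 and 1 in the UVD group, against 3 and 1 in the SO group, so at 4 h miR-130b-3p was near the background in both groups.

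**Figure D2:**
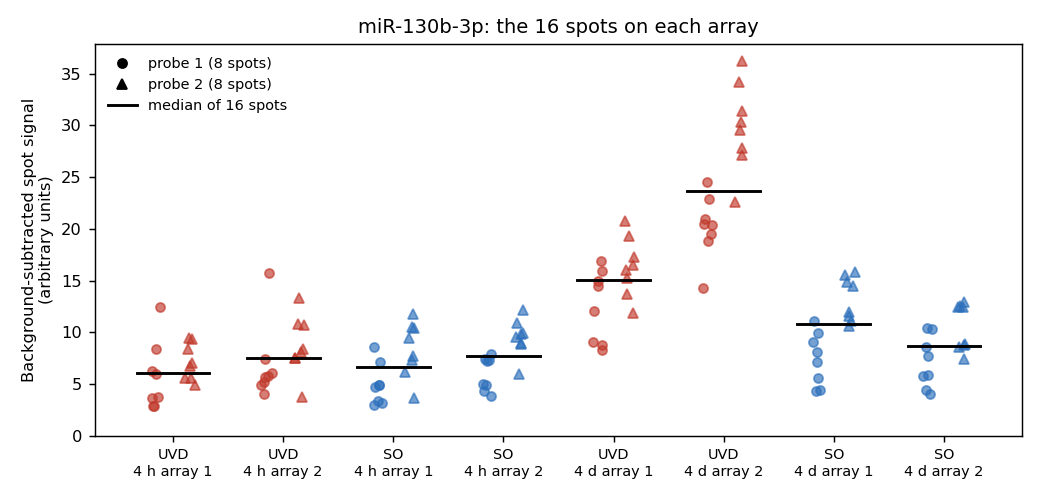
Background-subtracted signal (arbitrary units, linear axis from 0, not normalized between arrays) of the 16 miR-130b-3p spots on each array, UVD in red and SO in blue. Circles and triangles are the spots of its probes, and lines are the medians of 16 spots, which are 15.1 and 23.7 on the UVD 4 d arrays and between 6.10 and 10.8 on the other arrays.

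Both probes of miR-130b-3p showed the time difference in the UVD group. The ratio of the 4 d to the 4 h mean of the array medians was 3.18 for one probe and 3.06 for the other in the UVD group, against 1.32 and 1.31 in the SO group. Between the UVD and SO groups the probe ratios were 2.34 and 1.93 at 4 d and 0.973 and 0.829 at 4 h. These ratios came from signals that had not been normalized between arrays. On the same raw scale the probes of miR-130a-3p gave 1.46 and 1.48 for 4 d over 4 h in the UVD group, and those of miR-301a-3p gave 1.29 and 1.26.

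When the mean spot signals were quantile normalized in place of the total gene signals, miR-130b-3p had 12.5 and 25.9 on the UVD 4 d arrays and 10.0 and 9.75 on the SO 4 d arrays. At 4 h it had 5.82 and 8.06 in the UVD group, against 7.81 and 8.13 in the SO group. The log2 difference between 4 d and 4 h was then 1.39 in the UVD group (SE 0.33, 2.62-fold) and 0.31 in the SO group (SE 0.33), and between the UVD and SO groups it was −0.22 at 4 h and 0.86 at 4 d. Setting the undetected value to the lowest normalized intensity detected on that array, 6.15, gave 2.14 for 4 d minus 4 h in the UVD group and −0.20 for UVD minus SO at 4 h. That intensity is above the detected 4 h values of miR-130b-3p in total gene signal, 3.12, 5.47 and 4.65. On the other arrays the lowest detected intensity was between 0.321 and 2.92. The authors' own normalized intensity values, which hold the background signal, were 51.1 and 63.5 on the UVD 4 d arrays and 47.8 and 48.6 on the SO 4 d arrays, with 45.1 to 47.2 at 4 h. Their log2 differences were 0.31 for 4 d minus 4 h in the UVD group and 0.24 for UVD minus SO at 4 d. In all these versions the UVD 4 d arrays were the highest, while the size of the difference depended on the signal used, and UVD minus SO at 4 h was −0.69 with the undetected value left out and between −0.22 and −0.02 in the other versions without the floor value.

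**Figure D3:**
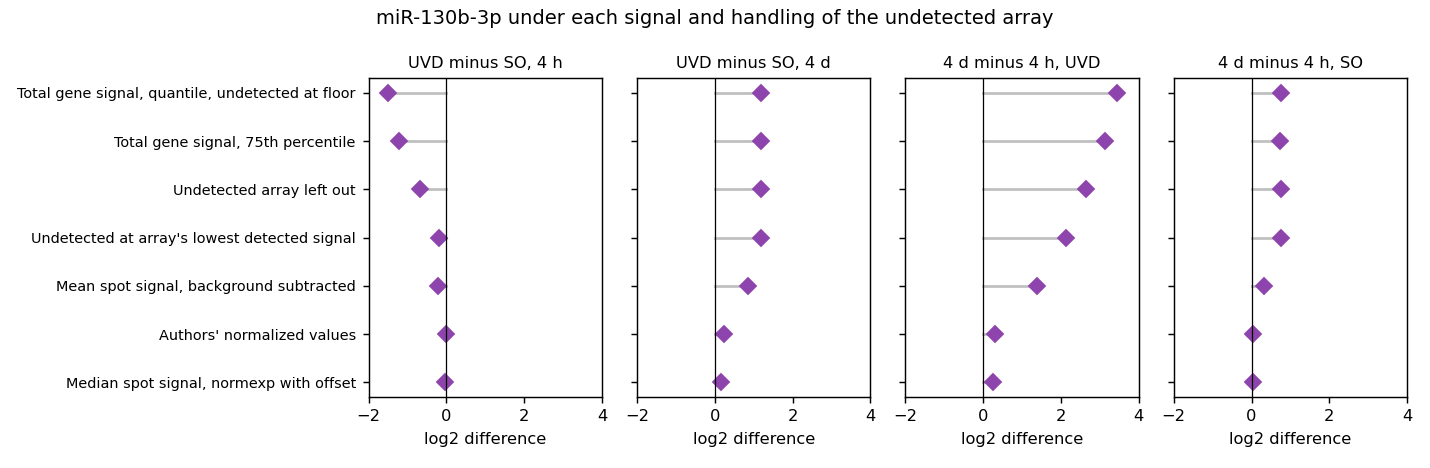
Log2 differences of miR-130b-3p in 4 comparisons (panels) under 7 choices of signal and of handling for the array on which it was not detected (rows). The difference between 4 d and 4 h within the UVD group runs from 3.45 with the undetected value at the floor to 0.25 with normexp background correction and an offset of 50. It stays above 0.

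miR-130a-3p varied little. At 4 h its normalized intensity was 1464 and 1384 in the UVD group, against 1617 and 1503 in the SO group. At 4 d it was 1571 and 1709 in the UVD group, against 1617 and 1503 in the SO group. The SO arrays held the same values at both times because quantile normalization gives equal ranks equal values. Their total gene signals before normalization were 1468 and 1657 at 4 h and 1582 and 1506 at 4 d. Means were 1424 ± 56.5 in the UVD group, against 1559.9 ± 80.6 in the SO group at 4 h, and 1639.8 ± 97.7 in the UVD group, against 1559.9 ± 80.6 in the SO group at 4 d (SD, n = 2 arrays each). The UVD 4 h arrays were below the SO 4 h arrays, with a log2 difference of −0.13 (SE 0.08), and the groups overlapped at 4 d, with a difference of 0.07 (SE 0.08). Within the UVD group the 4 d arrays were above the 4 h arrays by 0.20 on the log2 scale (SE 0.08, 1.15-fold). In the SO group the difference was 0.00 (SE 0.08).

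miR-301a-3p, whose gene lies within the bounds of protein-coding genes, showed differences of a similar size in other places. At 4 h its normalized intensity was 689.6 and 703 in the UVD group, against 644 and 670.3 in the SO group. At 4 d it was 728 and 703 in the UVD group, against 740.2 and 709.6 in the SO group. The UVD 4 h arrays were above the SO 4 h arrays by 0.08 on the log2 scale (SE 0.06), which is opposite in direction to miR-130a-3p, and at 4 d the groups overlapped, with a difference of −0.02 (SE 0.06). The 4 d arrays of the SO group were above its 4 h arrays by 0.14 (SE 0.06, 1.10-fold), and in the UVD group the times overlapped, with a difference of 0.04 (SE 0.06). The direction at 4 h was not kept with normexp background correction of the median spot signal, which gave −0.01.

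Few miRNAs of the array passed the threshold of limma (Benjamini-Hochberg adjusted p under 0.05 over 422 miRNAs). The members are counted in this fit, but as they were selected on the same signals, no outcome of the test is read for them. The shares of all tested miRNAs that passed were 0.474% for UVD against SO at 4 h, 0% at 4 d, 0% for 4 d against 4 h in the UVD group, 1.66% in the SO group, and 0.237% for the difference between these time changes. With limma, 72, 16, 65, 100 and 37 miRNAs had an unadjusted p under 0.05 in the same order. The methods' t-test called 0 miRNAs after Benjamini-Hochberg adjustment in each of the 4 comparisons of 2 groups.

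Arrays of compared groups often did not overlap, in the family and on the array at large. At 4 h, 2 of 3 members had both UVD arrays below both SO arrays, where 28.4% of the 422 miRNAs did, and 1 had them above, where 22.5% did. For miR-130b-3p 1 of the UVD values is the floor value, and its 4 h groups overlapped from the spot means. They also overlapped with the undetected value at that array's lowest detected intensity. That intensity, 6.15, is above its other 4 h values, which fixed the overlap in advance. The 4 h groups of miR-130a-3p overlapped with 75th-percentile scaling (UVD 1487.1 and 1449.7, SO 1541.0 and 1486.4). Those of miR-301a-3p overlapped from the spot means and with the authors' values. At 4 d, miR-130b-3p had both UVD arrays above both SO arrays, as did 12.1% of all tested miRNAs. In the UVD group 2 of 3 members had both 4 d arrays above both 4 h arrays, against 19.0% of all, and in the SO group 2 of 3 did, against 25.6% of all. The median log2 difference over the 3 members was −0.13 for UVD minus SO at 4 h and 0.07 at 4 d, and 0.20 for 4 d minus 4 h in the UVD group, against 0.14 in the SO group. Over all 422 it was −0.01, −0.02, −0.01 and 0.00 in the same order. With 3 members, and with the choice made in view of these signals, the counts describe the family and are no test of it.

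**Figure D4:**
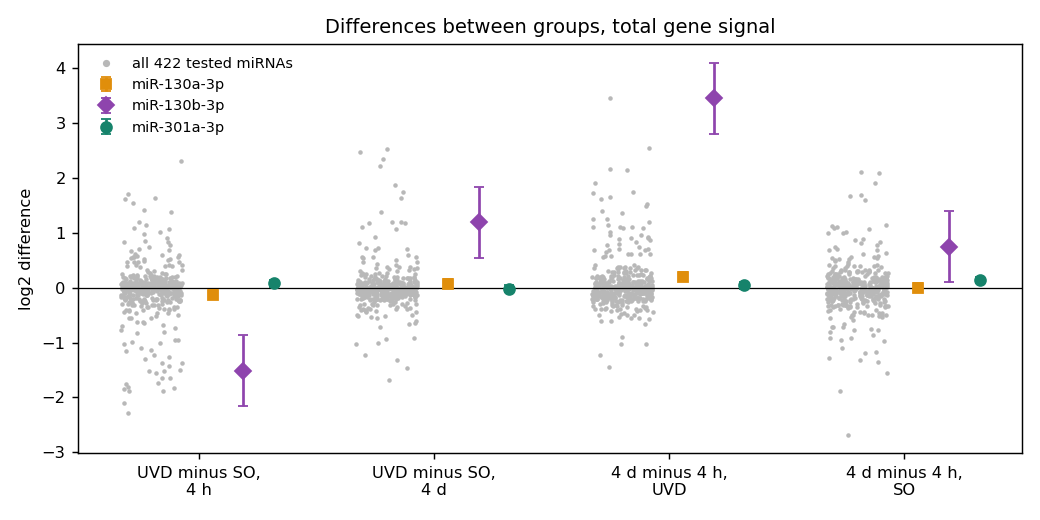
Log2 differences in normalized intensity for the 422 tested miRNAs (gray points, members included) and for the members of the family (colored symbols, bars are standard errors from limma) in 4 comparisons. miR-130b-3p, at 3.45 for 4 d minus 4 h in the UVD group, is the highest of all with its undetected value at the floor (2nd, 19th or 22nd with other signals), and miR-130a-3p and miR-301a-3p lie within 0.20 of 0 in each comparison.

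The difference between the time changes of the UVD and SO groups, 4 d minus 4 h in each, was 2.70 on the log2 scale for miR-130b-3p (SE 0.91), 0.20 for miR-130a-3p (SE 0.11) and −0.10 for miR-301a-3p (SE 0.08). The size of the 2.70 depends on the undetected value at the floor and on the signal used. Over 19 alternatives it ran from 0.20 to 3.52. miR-130a-3p and miR-130b-3p had the same sign in this difference. In both, the UVD mean was below the SO mean at 4 h and above it at 4 d. For miR-130b-3p the size of the 4 h difference rests on the floor value, and it ran from −2.33 to −0.02 over 19 alternatives. miR-130b-3p also had higher means at 4 d than at 4 h in both groups, and 4.50% of all tested miRNAs met all of these conditions.

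Other miRNAs carry most of the family seed shifted by 1 base. They are shown because their targets can overlap with those of the family, with the run shared with the seed in capitals:
miR-19a-3p: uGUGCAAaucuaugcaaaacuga
miR-19b-3p: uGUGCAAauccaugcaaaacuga
miR-148a-3p: ucAGUGCAcuacagaacuuug
miR-148b-3p: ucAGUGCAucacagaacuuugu
miR-152-3p: ucAGUGCAugacagaacuugg

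miR-19a-3p and miR-19b-3p come from the miR-17/92 cluster, known for its role in cell proliferation, and miR-148a, miR-148b and miR-152 form a family of their own. All 5 were tested and 0 passed the threshold of limma after adjustment in any comparison, or with the methods' t-test after adjustment. By limma without adjustment, 2 of 5 had p under 0.05 for UVD against SO at 4 h (miR-148a-3p and miR-148b-3p), 0 at 4 d, 2 for 4 d against 4 h with UVD (miR-19a-3p and miR-19b-3p), and 2 with SO (miR-148b-3p and miR-19a-3p). Of all tested miRNAs, 17.1%, 3.79%, 15.4% and 23.7% did in the same order. The 2 at 4 h differed in opposite directions, with log2 differences of −1.83 for miR-148a-3p and 0.18 for miR-148b-3p. The value of miR-148a-3p includes an undetected UVD array at the floor. miR-19a-3p had 177 and 205 on the UVD 4 d arrays and 137 and 150.3 on the UVD 4 h arrays, with a log2 difference of 0.41 (SE 0.10), and the SO group had 171 and 187 at 4 d and 142 and 145 at 4 h, with 0.32 (SE 0.10). miR-19b-3p had 1077 and 1201 on the UVD 4 d arrays and 976 and 962 on the UVD 4 h arrays (0.23, SE 0.08). In both the 4 d arrays were above the 4 h arrays in either group, and the UVD and SO groups differed by 0.09 at 4 d (SE 0.10 and 0.08).

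Of the miR-148/152 miRNAs, miR-148a-3p was, like miR-130b-3p, not detected on UVD 4 h replicate 2. This is not particular to miRNAs with a related seed. That array detected the fewest miRNAs, 378, and miR-144-5p of the erythroid list was not detected on it either. miR-148a-3p had 3.90 on UVD 4 h replicate 1, against 6.83 and 7.17 in the SO group, and at 4 d it had 4.70 and 3.83 in the UVD group, against 4.84 and 5.03 in the SO group. miR-148b-3p had 681 and 721 on the UVD 4 h arrays, against 614 and 621 in the SO group (log2 difference 0.18, SE 0.06). At 4 d the groups overlapped, with 709.6 and 670.3 in the UVD group, against 709.6 and 689.6 in the SO group. miR-152-3p had 68.4 and 63.0 on the UVD 4 h arrays, against 77.5 and 74.9 in the SO group (−0.22, SE 0.13). Over the 5 miRNAs the median log2 difference between 4 d and 4 h was 0.23 within the UVD group, with 4 higher and 1 lower, and 0.13 in the SO group, with 3 higher and 2 lower.

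The miRNAs with profiles most like the family were found by Pearson correlation of log2 intensity over the 8 arrays, as a description. For the mean profile of the 3 members they were miR-27a-3p (r = 0.90), let-7b-5p (r = 0.90) and let-7i-5p (r = 0.85). miR-27a-3p was also the closest to miR-130a-3p (r = 0.88) and to miR-130b-3p (r = 0.90), and miR-148b-3p was the closest to miR-301a-3p (r = 0.88). The arrays shared 1 normalization, and the mean profile follows miR-130b-3p, whose range is the widest. Both profiles include its undetected array at the floor of 1, and correlations without that value were not computed. miR-27a-3p had 2370.1 and 2594 on the UVD 4 d arrays, against 2370.1 and 2282 on the SO 4 d arrays, and at 4 h 2111 and 2111 in the UVD group, against 2282 and 2111 in the SO group. Its difference between 4 d and 4 h within the UVD group was 0.23 (SE 0.07).

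Lists of miRNAs of several cell types also differed on the UVD 4 d arrays. Their sums mostly follow the brightest members. On the UVD 4 d arrays the mean was 2738 for miR-150-5p of the microglia and leukocyte list. It was 5948 for miR-204-5p of the choroid plexus and ependyma list. The summed intensity of the microglia and leukocyte list (6 of 6 detected on all arrays) was 3899.8 to 4207 on the UVD 4 d arrays and 3711 to 3874 on the SO 4 d arrays, and at 4 h 3492 to 3542 in the UVD group, against 3192 to 3214 in the SO group. All 6 had higher means at 4 d than at 4 h in the UVD group (median log2 difference 0.45), as did 5 of 6 in the SO group (0.34), and 5 of 6 had higher means with UVD than with SO at 4 d (0.12). miR-223-3p, a miRNA of myeloid cells, had 77.5 and 267 on the UVD 4 d arrays and 65.8 and 61.8 on the SO 4 d arrays, and it was named after its values were seen. Its log2 difference between UVD and SO at 4 d, 1.17 (SE 0.58), was the largest of the 6 and came mostly from 1 array. The other 5 ran from −0.04 for miR-146a-5p to 0.24 for miR-155-5p. The choroid plexus and ependyma list (3 of 3 detected on all arrays) summed to 5219.95 to 6899.9 on the UVD 4 d arrays and 3991 to 4211 on the SO 4 d arrays. No defining miRNA of these lists was undetected. The vessel list (4 of 5 detected on all arrays, 1 on none) had 0 of 4 higher in the UVD group at 4 d. The neuron list summed to 50980.2 to 53989 on the UVD 4 d arrays and 46559 to 50498 on the SO 4 d arrays, with 4 of 5 higher and 1 lower. The oligodendrocyte list (3 of 3 detected on all arrays) summed to 45282 to 53601 on the UVD 4 d arrays and 55182 to 59613 on the SO 4 d arrays, with 0 of 3 higher. The erythroid list had 4 of 4 higher at 4 d than at 4 h in both the UVD group (median 0.37) and the SO group (median 0.26), and the muscle list had 1 of 4 higher in the UVD group at 4 d. The part of these cells in the miR-130b-3p result was not tested, and in pooled tissue more cells of a type cannot be told apart from more of a miRNA per cell.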

How the data were processed

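Total RNA of pooled left MVNs was labeled with Cy3 and hybridized to 1-color Agilent rat miRNA arrays, and the scans were read with Agilent Feature Extraction 10.7.3.1, per the submitters' processing notes. The deposited scanner files hold the intensity of each spot, the background-subtracted spot signal, the total gene signal of each miRNA (0.1 where not detected) and other quality columns. The authors' own normalized intensity values, also deposited, were quantile normalized by the authors, and the signal they started from is not given in the sources used here.

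Control spots were left out. Quantile normalization was run on the total gene signals of 758 miRNAs, with a floor of 1 before log2. A miRNA entered the test if both arrays of some group detected it, and 422 did. The test was limma (version 3.58.1, R version 4.3.3) with a model of the 4 group means, moderated variances and Benjamini-Hochberg adjustment at 0.05, and the code was checked on simulated data. Samples were grouped by their titles. The members and lists were chosen with earlier results of these data known. Named miRNAs were all family features, the 5 miRNAs with a shifted seed, those with the closest profiles, miRNA genes within 10 kb, and miRNAs of the cell type lists. miR-223-3p was named after its values were seen. The arrays of a group held pools of different rats, so p-values measure the spread between pools and not between animals. Alternatives covered scaling, signal, filter, floor, variance model, replicate block and left-out arrays. The spot means and both other treatments of undetected values were added after seeing the data.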

Additional observations from a re-analysis of the deposited data

Results flagged for a closer look

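miR-130b-3p was flagged because the UVD and SO groups differed in opposite directions at the 2 timepoints, with every UVD array below the SO arrays at 4 h and above them at 4 d. Of the 422 tested miRNAs, 28.4% had both UVD arrays below both SO arrays at 4 h, and 12.1% had them above at 4 d. The share with both was not counted. With the undetected value at the floor, the difference between the time changes was 2.70 on the log2 scale (SE 0.91), and over 19 alternatives it ran from 0.20 to 3.52. As the family was selected on these signals, no p-value is given for it. The 4 h side rests on an undetected value set to the floor: it was −1.51 with that value, −0.69 with it left out, and −0.22 from the spot means, where the UVD arrays had 5.82 and 8.06 and the SO arrays 7.81 and 8.13. Outliers within groups could not be looked for with 2 arrays each.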

How the results depend on the processing

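The family medians kept their sign in all 19 alternatives that gave one, in each comparison. Comparisons are named UVD/SO 4 h, UVD/SO 4 d, UVD time and SO time (4 d minus 4 h), and time difference (UVD time minus SO time). With 3 members, each median in the main fit is the value of 1 member, miR-301a-3p for SO time and miR-130a-3p otherwise. miR-301a-3p had the opposite sign to the median for UVD/SO 4 h, UVD/SO 4 d and the time difference. Medians that moved by more than the replicate spread of 0.04 were −0.04 (UVD/SO 4 h), 0.12 (UVD/SO 4 d) and 0.16 (time difference) with 75th-percentile scaling over miRNAs detected on all arrays, under which the median over all miRNAs for UVD/SO 4 h was 0.12 and not −0.01. With that scaling over all miRNAs they were −0.02, 0.13, 0.32, 0.24 and 0.14 in the order named. They were −0.03 (UVD/SO 4 h) and 0.05 (SO time) with normexp, −0.02 (UVD/SO 4 h), 0.03 (UVD/SO 4 d) and 0.05 (SO time) with the authors' values, −0.06 (UVD/SO 4 h) with a floor of 5, and 0.13 (UVD/SO 4 d), 0.26 (UVD time) and 0.27 (time difference) with spot means. Leaving out 1 array gave −0.18 to −0.08, 0.01 to 0.13, 0.14 to 0.26, 0.11 to 0.17 and 0.14 to 0.26 in the order named. For miR-130b-3p, UVD time was 2.63 without UVD 4 h replicate 2 and 4.27 without UVD 4 h replicate 1, and UVD/SO 4 d was 0.66 without UVD 4 d replicate 2. miR-130a-3p for SO time and miR-301a-3p for UVD/SO changed sign in some alternatives, with differences between −0.06 and 0.17.

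The counts of called miRNAs, 2, 0, 0, 7 and 1 in the order named, became 1, 1, 1, 1 and 2 under either 75th-percentile scaling. They were 5 (UVD/SO 4 h), 12 (SO time) and 0 (time difference) with normexp, 19 (SO time) and 0 (time difference) with the authors' values, 2 (UVD/SO 4 d, UVD time and SO time) and 3 (time difference) without a filter, 2 (UVD/SO 4 d and time difference) with a floor of 5, and 6 (UVD/SO 4 h) and 0 (time difference) with a trended, robust variance. They were 0 (UVD/SO 4 h and SO time) with the methods' t-test, 1 (UVD/SO 4 h) with undetected values left out or at the detection limit, and 5 (UVD/SO 4 h), 13 (SO time) and 0 (time difference) with spot means. Leaving out 1 array gave 1 to 10, 0 to 2, 0 to 11, 1 to 12 and 0 to 7 in the order named, the highest without UVD 4 h replicate 1 (10, 11 and 7), UVD 4 d replicate 2 (2) or SO 4 d replicate 1 (12). The cause was not tested. With the replicate number as a block, SO time had 2 calls and the members' differences did not change. Deviations of same-numbered arrays correlated between −0.25 and 0.19, so the numbers are not taken as pairs; they come from the sample titles, and another label numbers some samples differently. Detection on all 8 arrays leaves out miR-130b-3p and gave no family median. Signals near the background limit miR-130b-3p at 4 h and miR-301b-3p throughout.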
